A study of Caenorhabditis elegans with 2 samples.

Results

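The splicing factor genes described here are the protein-coding genes of Caenorhabditis elegans whose symbols begin with snr-, snrp-, rsp-, prp-, uaf-, sftb- or sap-, together with sfa-1. The list is defined by symbol, and it was proposed with results of these data known. The Ensembl WBcel235 gene models hold 41 of these genes among 19973 nuclear protein-coding genes. By the family their symbol names, 7 are Sm protein genes (snr-), 5 encode other proteins of small nuclear ribonucleoproteins (snRNPs; snrp-), 8 encode SR proteins (rsp-), 13 carry names from yeast pre-mRNA processing factors (prp-), and 8 belong to recognition of the branch site and the 3' splice site (uaf-, sfa-1, sftb-, sap-). This grouping is by symbol alone. Genes with a prp- symbol were not sorted by their role, so the last group need not hold every gene for that step. The promoters of the 41 genes were examined in a chromatin immunoprecipitation sequencing (ChIP-seq) experiment on the protein of F52B5.7. The animals were strain OP606, whose genotype is unc-119(tm4063) III; wgIs606, a line that stably carries an inserted copy of F52B5.7 fused to GFP and FLAG at the C-terminal end. Whole young adults of mixed sex were collected 63 h after starved L1 larvae resumed growth, and an anti-GFP antibody was used on chromatin sheared by sonication. Both biological replicates belong to this 1 group, so no strain or treatment contrast exists, and whole animals do not show in which cells a region was bound.

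Splicing removes introns from pre-mRNA in the spliceosome, which is built from snRNPs and many other proteins. Each spliceosomal snRNP joins a small nuclear RNA (snRNA) to a ring of Sm proteins. SR proteins, which carry a domain rich in arginine and serine, bind exons and help to choose splice sites. U2AF and SF1 mark the end of the intron and the branch site before the SF3 complexes settle there. In C. elegans the same Sm ring also sits on the spliced leader RNA, which is joined to the front of many mRNAs by trans-splicing. The annotated start of such a gene can therefore lie downstream of the place where transcription begins.

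A gene was counted as bound when the summit of a peak in the authors' ce11 optimal list of 1032 peaks lay between 1000 bp upstream and 500 bp downstream of an annotated start of one of its protein-coding transcripts. Of the 41 splicing factor genes, 6 were bound (14.6%), against 3.004% of all protein-coding genes. They were snrp-200, snr-4, prp-19, rsp-3, rsp-1 and rsp-2. Only 5 peaks lay behind these 6 genes, because rsp-1 and rsp-2 shared 1. None of the 8 genes for branch site and 3' splice site recognition was bound, but 8 genes are too few to set this apart from the 3.004%. No test of the list was run, since the genes were proposed with results of these data known, so the shares are a description.

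The DNA under the 5 peaks is shown here because the summits sit in 3 kinds of place: in coding sequence (snrp-200 and rsp-3), beside an snRNA gene (snr-4), or between genes that point away from each other (prp-19, and rsp-1 with rsp-2). Sequences are from the RefSeq copy of the same assembly (ce11), and the 11 capital bases of each centre on the summit. The snrp-200 stretch is chrII:12736776-12736875 on the minus strand and begins at its start codon. The rsp-3 stretch is coding sequence, chrIII:12687565-12687665 on the minus strand. The snr-4 stretch, chrV:11980262-11980358 on the plus strand, begins at the first base after the snRNA gene. For prp-19 it is chrIII:5172620-5172719 and for rsp-1 and rsp-2 chrII:11453186-11453286, both on the plus strand and outside annotated genes.
snrp-200 peak: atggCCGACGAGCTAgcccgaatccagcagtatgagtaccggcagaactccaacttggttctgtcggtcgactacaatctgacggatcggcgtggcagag
snr-4 peak: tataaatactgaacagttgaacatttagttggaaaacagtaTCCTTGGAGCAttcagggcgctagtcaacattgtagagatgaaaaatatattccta
prp-19 peak: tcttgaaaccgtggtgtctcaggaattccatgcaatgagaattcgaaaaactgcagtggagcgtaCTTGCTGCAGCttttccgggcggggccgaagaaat
rsp-3 peak: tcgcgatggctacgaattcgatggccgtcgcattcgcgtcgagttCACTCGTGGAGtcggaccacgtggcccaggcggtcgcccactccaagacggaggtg
rsp-1 and rsp-2 peak: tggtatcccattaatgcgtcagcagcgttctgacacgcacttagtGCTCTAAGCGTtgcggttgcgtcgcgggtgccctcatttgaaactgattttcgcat

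**Figure D1:**
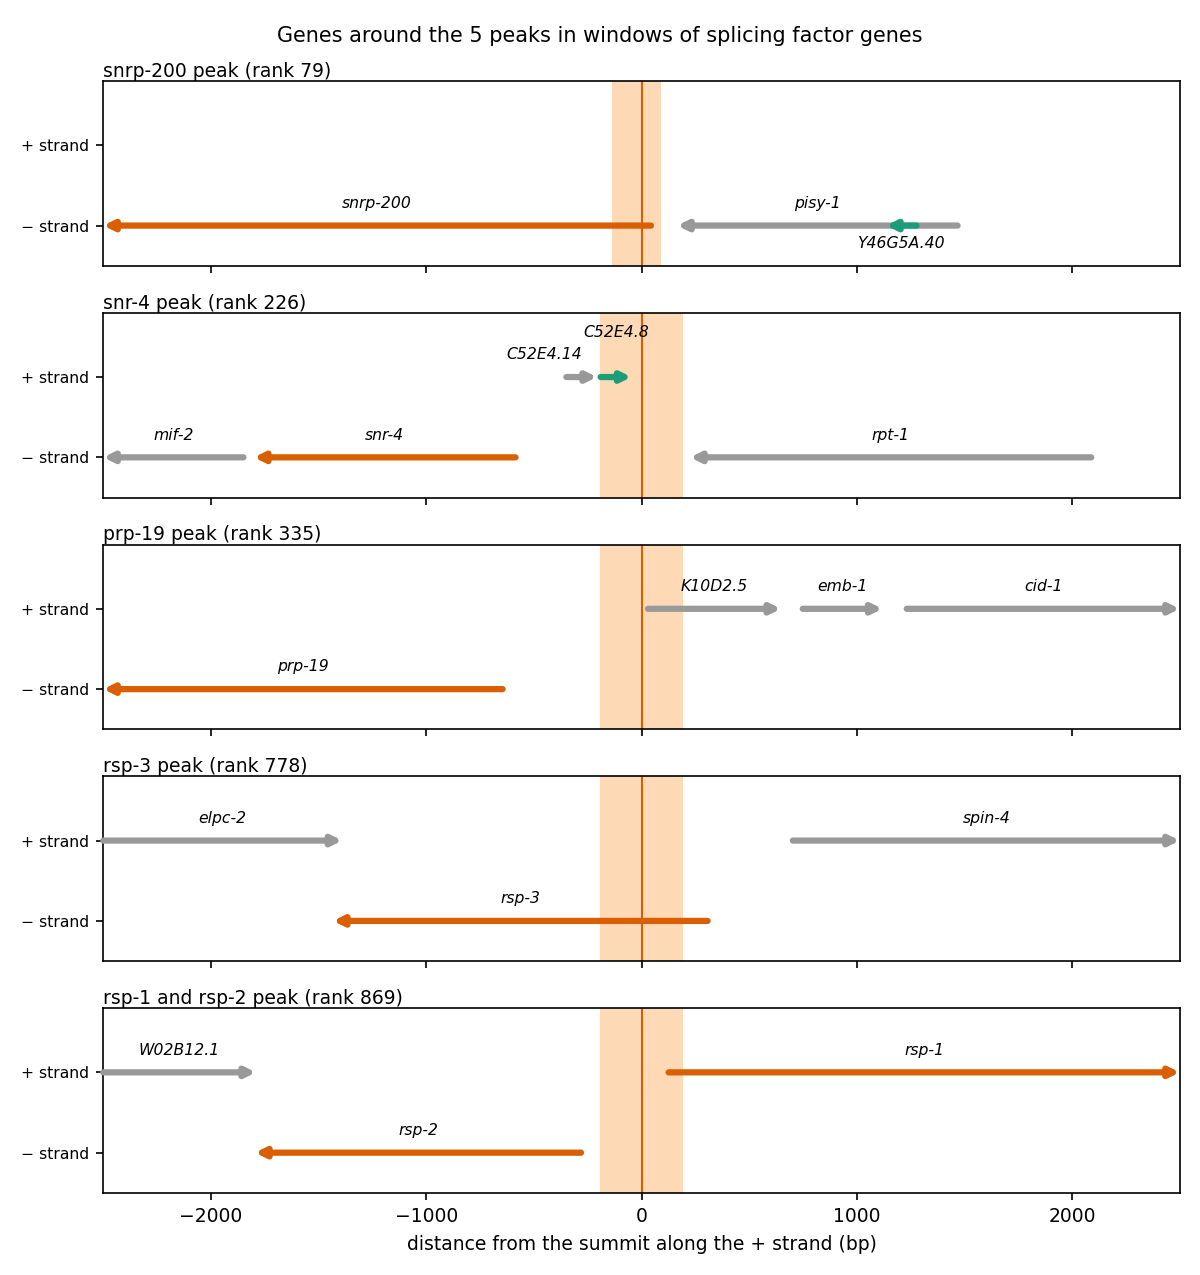
Each panel shows the genes within 2500 bp of 1 of the 5 summits, with distance from the summit in bp on the x axis and the strands on the y axis. Arrows run from gene start to gene end (orange for splicing factor genes, green for snRNA or snoRNA genes, grey for others), the shaded band is the peak, and arrows are cut at the panel edges. The snr-4 peak covers the snRNA gene C52E4.8, the prp-19 peak covers the start of K10D2.5, and the summit of the rsp-1 and rsp-2 peak lies between both genes.

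Each region carries a signal value set by the authors, with no stated scale, and regions were ranked by it within a list, rank 1 being the strongest. Signals of different lists are not on a shared scale, so replicates were compared by rank. The optimal list equals the top 1032 of the 30000 pooled candidates, with signals from 115 to 2954 and a median of 147. Replicate lists also hold 30000 candidates each, and the 1032 strongest of each were used to match the optimal list in length. For genes without an optimal peak, the best candidates of the 3 lists can be different regions of the window. Read depth cannot be had from lists of fixed length.

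Among the snRNP genes outside the Sm family, snrp-200 was the only 1 of 5 bound, against 3.004% of all genes. It had the strongest peak of all splicing factor genes. It encodes the counterpart of the helicase Brr2, which unwinds paired snRNAs as the spliceosome is activated. Its peak (chrII:12736728-12736955) ranked 79 with a signal of 257, higher than or equal to 92.4% of optimal peaks. The overlapping candidate ranked 74 in replicate 1 (signal 143) and 108 in replicate 2 (126), so both libraries placed it among their strongest regions. The summit lay 44 bp downstream of the annotated start, at base 10 of the coding sequence. In replicate 1 the summit was the same base, and in replicate 2 it lay 93 bp farther into the gene. The next snRNP gene, snrp-40.1, which encodes a WD-repeat protein of the U5 snRNP, had its strongest pooled candidate at rank 1335 and was not bound. Its candidates ranked 1814 in replicate 1 and 1881 in replicate 2, all within 26 bp of its start. For snrp-27 the pooled rank was 7934, and snrp-3 and snrp-40.2 had no candidate in any list.

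Of the 7 Sm protein genes, only snr-4 was bound, against 3.004% of all genes. It encodes SmD2. The peak (chrV:11980113-11980502) ranked 226 with a signal of 191, and the candidates ranked 443 in replicate 1 (82.8) and 221 in replicate 2 (102). The summit lay 585 bp upstream of the snr-4 start and outside annotated genes, but only 47 bp past the end of an snRNA gene on the other strand. That gene, WBGene00014291 (chrV:11980118-11980261), is C52E4.8 in RefSeq, while the Ensembl models give it the symbol T11F9.15. RefSeq keeps that symbol for WBGene00014517 (chrV:11478148-11478291), which has the same 144 bases. The sequence of C52E4.8 is printed here because it holds AATTTTTG (capitals, bases 117 to 124), a form of the site that Sm proteins bind in snRNAs, which was searched on the RNA strand alone and occurs in 50 of 129 annotated snRNA genes (38.8%).
C52E4.8: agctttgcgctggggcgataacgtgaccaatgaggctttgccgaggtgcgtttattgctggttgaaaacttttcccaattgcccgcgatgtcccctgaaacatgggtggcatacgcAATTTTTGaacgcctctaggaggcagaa

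Within the 144 bases, short reads from the copies could not be told apart, but the summit lies outside them. In the 100 bases on either side the copies match without gaps at 37 upstream and 26 downstream positions. The copy away from snr-4 had no optimal peak within 250 bp. Its best candidates ranked 5075 in the pooled list, 6377 in replicate 1 and 6077 in replicate 2. The snr-4 peak was the only one of the 5 with a tRNA, snoRNA or snRNA gene within 250 bp of its summit, so this held for 1 of 6 bound splicing factor genes, against 16.3% of all 600 bound genes. Whether the region belongs to snr-4 or to the snRNA gene cannot be told from its position.

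The other Sm genes fell short of the optimal list. The closest was snr-1, which encodes SmD3. Its strongest pooled candidate, 387 bp upstream of the start, ranked 1082 with a signal of 113, just under the weakest optimal peak. This candidate ranked 520 in replicate 2 (78.6) and 9578 in replicate 1 (34.3), so it was strong in 1 library alone. The snr-3 gene, for SmD1, had a pooled candidate at rank 1540, shared with rsp-5, and snr-2, for SmB, had one at rank 23049 in the pooled list alone. For snr-5, snr-6 and snr-7, which encode SmF, SmE and SmG, no candidate lay in the window in any list.

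SR protein genes gave 3 of the 6 bound genes, from 8 members. The gene rsp-3 encodes the counterpart of human SRSF1, a regulator of exon choice. Its peak (chrIII:12687420-12687809) ranked 778 with a signal of 128, and the summit lay in coding sequence 301 bp downstream of the start. The replicates differed here: the overlapping candidate ranked 346 in replicate 1 (88.6) and 3383 in replicate 2 (44.2). The window of spin-4, a gene for a membrane transporter of the Spinster family, also held this summit at 703 bp upstream of its start.

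The peak shared by rsp-1 and rsp-2 (chrII:11453041-11453430) ranked 869 with a signal of 122. It ranked 1475 in replicate 1 (59.5) and 988 in replicate 2 (64.8), so it was outside the 1032 strongest regions of replicate 1. These genes are transcribed away from each other, with 406 bp between their outermost annotated starts. The outermost start of rsp-1 is that of a noncoding transcript, which begins only 126 bp from the summit. The summit lay 281 bp upstream of rsp-2 and 738 bp upstream of the nearest protein-coding transcript of rsp-1. A second pair of splicing factor genes, rsp-5 and snr-3, has the same layout with 403 bp between them and shared a weaker candidate. Its summit lay 951 bp upstream of rsp-5 and within snr-3, 547 bp past the outermost start of that gene and 238 bp past its nearest one. The candidate had ranks of 1540 in the pooled list, 3199 in replicate 1 and 5199 in replicate 2. The other SR genes rsp-8, rsp-6 and rsp-4 had pooled candidates at ranks 4732, 5651 and 7683. The gene rsp-7 had no candidate in any list.

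Of the 13 prp- genes, prp-19 alone was bound, against 3.004% of all genes. It encodes the ubiquitin ligase of the complex that joins the spliceosome as it is activated. The peak (chrIII:5172495-5172884) ranked 335 with a signal of 169, and 385 in replicate 1 (86.5) and 498 in replicate 2 (79.8). Both replicate summits fell within 19 bp of the pooled one. The summit lay 645 bp upstream of prp-19 and 30 bp upstream of K10D2.5, which runs the other way. It was also in the window of emb-1, a gene for a subunit of the anaphase-promoting complex, at 749 bp upstream. The prp-19 window thus reaches a peak that is far nearer to another start. Next came prp-39, which encodes a U1 snRNP-associated factor. Its pooled rank was 1101 with a signal of 112, and its candidates ranked 1256 in replicate 1 and 2994 in replicate 2, with the pooled summit 75 bp past the start. The pooled candidate of prp-8, the gene for the protein at the core of the spliceosome, ranked 5578, and that of prp-38 ranked 5133. The genes prp-18 and prp-9 had no candidate in any list, and prp-21 and prp-6 had one in replicate 2 alone.

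Most of the 8 genes for branch site and 3' splice site recognition held pooled candidates. None had an optimal peak, which a group of this size cannot set apart from the share of all genes. The strongest was at sftb-2, of the SF3B complex, at pooled rank 4684 (6938 in replicate 1 and 2354 in replicate 2). Pooled ranks were 6492 at uaf-2 and 10690 at uaf-1, the genes for the U2AF subunits, and 10302 at sftb-1, the gene for the SF3B subunit that binds the branch site region. The branch point binding protein gene sfa-1 had rank 29493, close to the end of the list. These 7 genes with a pooled candidate were thus spread from rank 4684 to 29493.

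**Figure D2:**
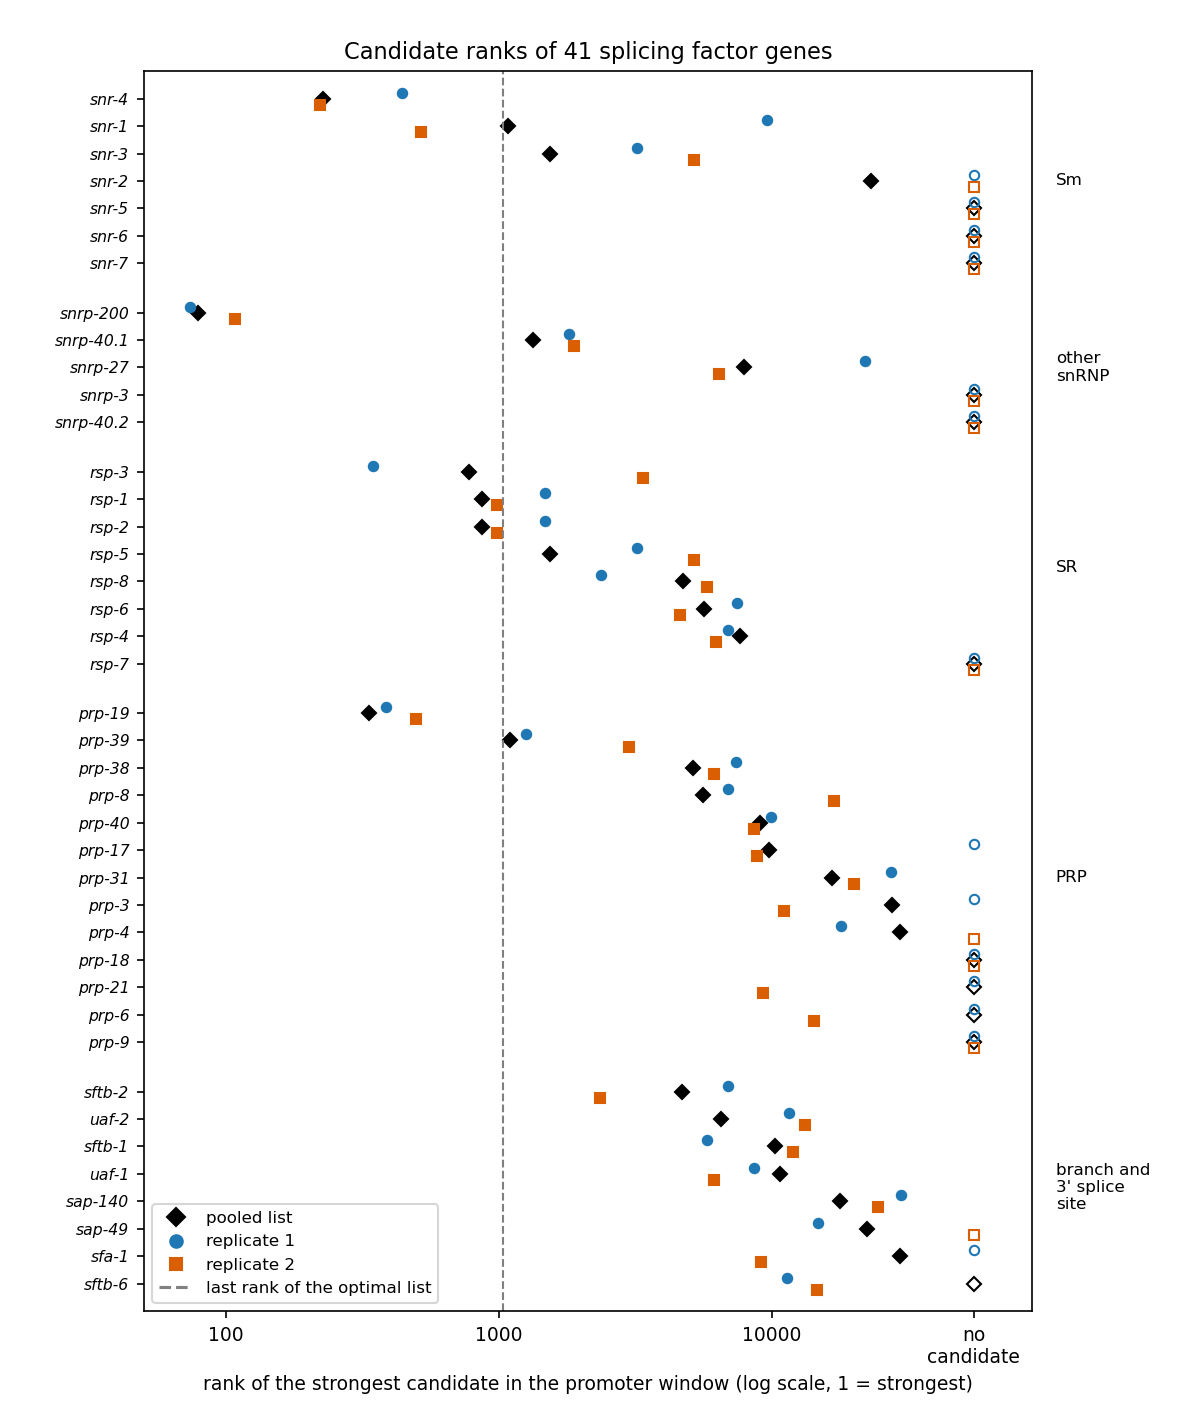
The x axis gives the rank of the strongest candidate in the promoter window (log scale, 1 is the strongest) and the y axis the 41 splicing factor genes, grouped by family. Filled symbols are ranks in the pooled list and in each replicate, open symbols mark genes with no candidate in that list, and the dashed line is rank 1032. The pooled diamonds of 6 genes lie left of the line, and snrp-200, snr-4 and prp-19 have both replicates there too.

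Taken 1 replicate at a time, 4 splicing factor genes had a summit of the 1032 strongest regions of replicate 1 in their window (9.76%), against 2.61% of all genes. For replicate 2 it was 6 genes (14.6%), against 3.05%. The replicate 1 genes were snrp-200, rsp-3, prp-19 and snr-4. The replicate 2 genes were snrp-200, snr-4, prp-19, snr-1, rsp-1 and rsp-2. Present in both were 3 genes, snrp-200, snr-4 and prp-19 (7.32%), against 1.47% of all genes. For the best ranks in the 2 replicates, Spearman's rho was 0.762 across the 25 splicing factor genes that had candidates in each, against 0.466 over the 5227 such protein-coding genes. Genes that share a peak enter as separate points, and genes are not replicates.

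Candidates of any rank, those of bound genes included, were also found more often at splicing factor genes. A pooled candidate of any rank lay in the window of 30 of the 41 (73.2%), against 38.7% of all genes. The counts were 27 in replicate 1 (65.9%, against 39.5%) and 30 in replicate 2 (73.2%, against 40.7%). No candidate in any of the 3 lists was held by 8 splicing factor genes, and the matching share of all genes was not computed. Among genes with a pooled candidate, 6 of 30 splicing factor genes were bound (20.0%), against 7.76% of all such genes. The 30 genes had a median best rank of 5614.5, against 10883 for the 7735 genes with a candidate. The windows of a gene covered a median of 1501 bp in the 41 splicing factor genes and in all genes, which is the length for 1 start. They reached 3165 bp in splicing factor genes, and total lengths were not compared. With only the 5'-most start of each gene used, 6 splicing factor genes were bound (14.6%, against 2.60% of all genes). With the list cut at its 500 strongest regions, 3 splicing factor genes had a summit (7.32%, against 1.497% of all genes). At 2064 regions it was 11 (26.8%, against 5.36%), at 5000 regions 13 (31.7%, against 10.8%) and at 10000 regions 21 (51.2%, against 18.1%).

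**Figure D3:**
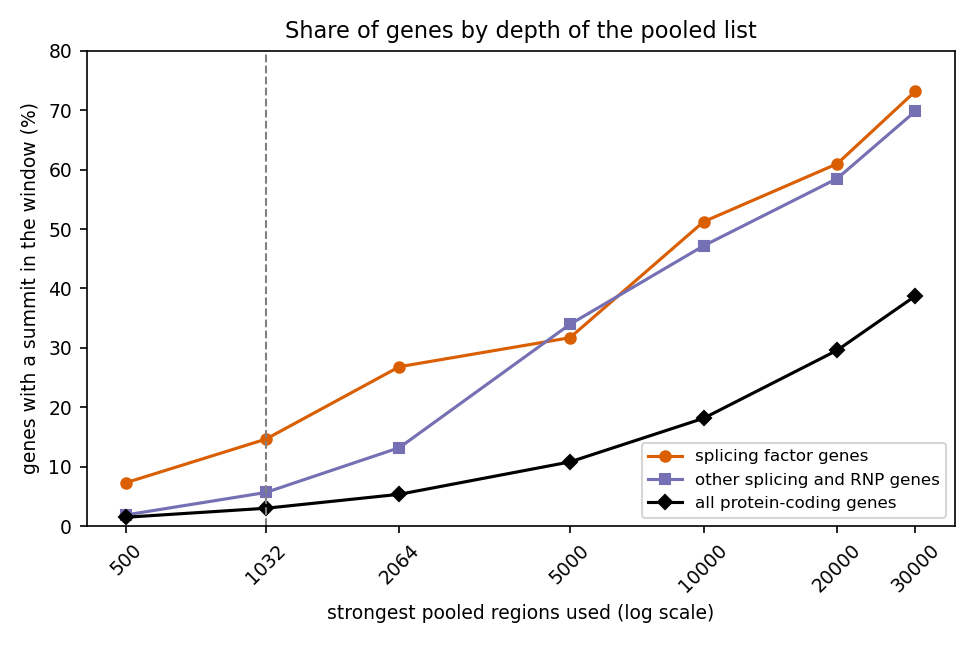
The x axis gives the number of strongest pooled regions used (log scale) and the y axis the share of genes in percent with a summit in the window, for 41 splicing factor genes, 53 other splicing and RNP genes and 19973 protein-coding genes; the dashed line marks the 1032 optimal peaks. Splicing factor genes lie above all genes at each of the 7 depths, from 7.32% against 1.497% to 73.2% against 38.7%.

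Most bound splicing factor genes had their summit away from the annotated starts of their protein-coding transcripts. The median distance of the nearest summit was 443 bp over the 6 genes, against 278 bp over all 600 bound genes. Only snrp-200 had its summit within 250 bp of such a start, while 44.5% of bound genes did. These distances take rsp-1 at 738 bp and leave out its noncoding transcript, which begins 126 bp from the summit. With starts of noncoding transcripts included, rsp-1 and snrp-200 had a summit within 250 bp (4.88% of the 41, against 1.35% of all genes). Summits lay upstream of the start in 4 of the 6 genes, against 73.8% of bound genes. Of the 502 peaks in promoter windows, 20.7% lay in windows of several genes, and of the 5 behind splicing factor genes 3 did. The median signal over the 6 genes was 148.3, against 147.8 over all bound genes. Splicing factor genes also have close neighbours: 23 of 41 (56.1%) had a start of a protein-coding transcript on the opposite strand within 1000 bp upstream, against 18.7% of all genes. Among genes so placed, 2 of 23 splicing factor genes were bound (8.70%), against 4.37% of all such genes, and among the others 4 of 18 (22.2%) against 2.69%. The order of the shares depends on rsp-1 and rsp-2, which count as so placed only through the noncoding transcript of rsp-1. With starts of transcripts of any kind, 4 of 25 such splicing factor genes were bound, against 4.43% of all such genes, and 2 of 16 of the others (12.5%), against 2.68%. By chromosome, 3 of 11 splicing factor genes were bound on II (3.10% of all genes there), 2 of 11 on III (4.47%) and 1 of 5 on V (1.68%). None was bound of the 7 on I (3.96% of all genes there), the 6 on IV (3.60%) and the 1 on X (2.16%).

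Summits were also found inside or just past splicing factor genes, outside their promoter windows. In the gene body 3 of 41 had such an optimal summit (7.32%), against 1.57% of all genes. The strongest was in rsp-8, which encodes the counterpart of the splicing regulator Tra2. This peak (chrIII:11830549-11830830) ranked 81 with a signal of 256, close to the rank of the snrp-200 promoter peak. It ranked 47 in replicate 1 (159) and 357 in replicate 2 (89.1). The summit lay in coding sequence, 767 bp past the nearest start of the gene. A second rsp-3 peak (rank 703, signal 132) lay in a UTR 1317 bp past the start, with ranks of 865 in replicate 1 and 649 in replicate 2. A second snrp-200 peak (rank 837, signal 123) lay in coding sequence 6831 bp past the start and ranked 558 and 2740 in replicates 1 and 2.

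Summits up to 250 bp past the 3' end, outside the promoter window, were found for 3 of 41 genes (7.32%), against 1.46% of all genes. One lay 113 bp past rsp-6, which encodes a small SR protein, and ranked 167 with a signal of 213 (529 in replicate 1 and 94 in replicate 2). It lay nearer to a start of another gene, 121 bp upstream of imp-3. A peak 68 bp past snr-1 (rank 640, signal 136) fell in coding sequence of a neighbouring gene, 163 bp past its start. The peak 72 bp past snrp-200 (rank 682, signal 133) differed most between the replicates, with rank 19737 in replicate 1 and 156 in replicate 2. Gene length was not matched in these shares.

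Other genes of the pathway were taken from a list of 53 splicing and RNP genes outside the naming rule, among them Sm-like (lsm-), mog-, SMN complex and tissue-specific regulator genes. Of these, 3 were bound (5.66%), against 3.004% of all genes. They were ddx-23, a tri-snRNP helicase gene (rank 452, signal 152, 155 bp upstream), lsm-6, which encodes an Sm-like protein (543, 143, 128 bp upstream), and spk-1, which encodes an SR protein kinase (643, 136, 291 bp upstream). The lsm-6 peak was shared with Y71G12B.13 and the spk-1 peak with rheb-1, whose start was 4 bp nearer. In replicate 1 their candidates ranked 1798, 1943 and 1982, all outside the 1032 strongest regions. In replicate 2 ddx-23 ranked 252, lsm-6 380 and spk-1 1252. The 1032 strongest regions of replicate 1 gave 2 of the 53 (3.77%, against 2.61% of all genes), lsm-7 and lsm-3. Those of replicate 2 gave 8 (15.1%, against 3.05%), which were cdc-5L, ddx-23, lsm-6, lsm-7, mog-4, smr-1, smu-1 and teg-4. In replicate 2 this share was thus close to the 14.6% of the splicing factor genes. A pooled candidate lay in the window of 37 of the 53 (69.8%, against the 38.7% above). For these genes, as for the splicing factor genes, candidates were thus more frequent than over all genes. Gene body summits lay in 2 of the 53 (3.77%, against 1.57% of all genes), lsm-7 (rank 144) and spk-1 (rank 821). Past the 3' end, 1 of the 53 had a summit (1.89%), close to the 1.46% of all genes. This summit lay 118 bp past hrpa-1 (rank 78), nearest to the start of F42A6.6.

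The base content under the 5 peaks varied. In 101 bp windows on the summits, GC content was 64.4% at rsp-3, 52.5% at prp-19, 51.5% at rsp-1 and rsp-2, 49.5% at snrp-200 and 33.7% at snr-4. Over all 1032 optimal peaks the median was 49.5% and the middle 50% ran from 43.6% to 54.5%. Thus rsp-3 lay above and snr-4 below that range. Windows of the same length were searched on both strands for 5 motifs of 6 letters, chosen with earlier results for the whole optimal list known. GTTCGA, a core of the internal B box of tRNA genes, occurs in 12.6% of the 1032 windows, AGAGCG in 11.0%, GAACCC in 8.43%, ACCACT in 11.9% and ACGCAG in 10.5%. None of these motifs occurred in the 5 windows of the splicing factor genes. With each motif in at most 12.6% of all windows, 5 windows are too few to read anything into this absence.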

How the data were processed

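Binding of GFP-tagged F52B5.7 was measured by ChIP-seq in 2 biological replicates of 1 group. The authors deposited candidate regions for each replicate and for both pooled, and an optimal list kept by the irreproducible discovery rate (IDR), which weighs how well ranks match between lists, per the submitters' file manifests. Aligner, peak caller, software versions and IDR cutoff were not given in the sources used here. Each region's signal value, as the authors deposited it, has no stated scale and served for ranks within a list. The deposited −log10 q values were not used. Regions were annotated on ce11 with Ensembl release 115 models (nuclear chromosomes) and RefSeq sequence of the same assembly, in Python 3.11.15 with pandas 2.3.3. Bound genes had a summit within 1000 bp upstream to 500 bp downstream of a protein-coding transcript start. Replicate candidates were tied to a peak by 1 bp of overlap. Splicing factor genes and lists were chosen with earlier results of these data known, so no list test was run, and counts stand beside the share of all genes. Named were bound genes, the strongest unbound candidates, genes found in 1 replicate, gene body summits and neighbours. Other genes were named after their values were seen, and not every member of each family is named. Summits past 3' ends, divergent starts, the snRNA copy, motifs and base content were also added after the data were seen. Window assignment was tested on simulated data. Depth is unknown from these lists. Alternatives varied the window, the starts, the assignment and the peak list.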

Additional observations from a re-analysis of the deposited data

How the results depend on the processing

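No paired analysis was possible because both replicates belong to 1 group. The share of splicing factor genes bound was above that of all genes in 15 of 15 alternatives that gave both shares. These alternatives reuse many of the same peaks, so they are not independent of each other. The count of bound splicing factor genes stayed within 1.5 times the 6 reported in 10 of 16 alternatives. Some of these could move little by design, so the tally does not measure stability. A wider window or added noncoding starts can only add genes. Leaving out the snr-4 peak, by name or as the only one near a small RNA gene, had to give 5. The ce10 list held the same peaks. The count was 2 (4.88%, against 1.99% of all genes) from 500 bp upstream to 250 bp downstream and 1 (2.44%, against 1.34%) within 250 bp of a start. It was 2 (4.88%, against 1.35%) within 250 bp when starts of noncoding transcripts were included. It was 3 (7.32%, against 1.54%) with the 516 strongest peaks, 3 (7.32%, against 1.42%) with summits in the strongest regions of both replicates, and 11 (26.8%, against 5.36%) with 2064 pooled regions. With 1 replicate left out it was 4 to 6 (9.76%, against 2.61%, without replicate 2 and 14.6%, against 3.05%, without replicate 1). The peaks behind the genes numbered 5, and 2, 1, 3, 3 and 9 under the narrower windows, the 516 strongest peaks, both replicates and 2064 regions, and 4 to 5 with 1 replicate left out. With each summit given to its nearest start alone, 4 genes were bound (9.76%, against 2.48%), without rsp-1 and prp-19. Without peaks near tRNA, snoRNA or snRNA genes, 5 were bound (12.2%, against 2.52%). Of the 53 other splicing and RNP genes, 3 were bound (5.66%, against 3.004% of all genes). The count was 1 with the 516 strongest peaks (1.89%, against 1.54%) and 7 with 2064 regions (13.2%, against 5.36%). It was 0 with summits in the strongest regions of both replicates, against 1.42% of all genes. Counted by gene, where the summits of the replicates may differ, lsm-7 was in both (1 of 53, 1.89%, against 1.47% of all genes). With 1 replicate left out the count was 2 to 8. It was 2 without replicate 2 (3.77%, against 2.61%) and 8 without replicate 1 (15.1%, against 3.05%). Counts of a handful of genes move with single peaks. All 5 peaks matched the ce10 optimal list by chromosome, width, summit offset and signal within 0.1%. Alternatives without the snr-4 peak or with noncoding transcripts, divergent starts included, were chosen after seeing the data. The causes of these changes were not tested beyond what each setting removes.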
